A study of Mus musculus with 5 samples.

Results

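Intestinal B cells with little or no interferon-response transcript were described across 5 segments of the mouse intestine. The cells were chosen from droplet single-cell libraries, 1 library each of duodenum, jejunum, ileum, colon and rectum, and values by segment are given in that order. A cell barcode was a member if it had at least 300 genes, at most 20% mitochondrial UMIs (unique molecular identifiers, each standing for 1 captured transcript) and at least 3 UMIs of Cd79a, Cd79b and Ms4a1 together. It also had no UMI of Epcam, Cd3e or C1qa, under 0.5% of its UMIs from Jchain, and at most 1 UMI of Ifit1, Ifit2, Ifit3, Usp18, Rsad2, Ifi206, Ifi208, Ifi209, Ifi213 and Ifi214 together. There were 1751 members among 12255 barcodes kept by the first pair of filters and 16535 barcodes in all. By segment there were 456, 262, 351, 279 and 403 members, which was 13.8%, 14.0%, 13.9%, 12.7% and 17.1% of the kept barcodes.

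The study profiled intestinal segments, its title concerns stromal cells and epithelial differentiation, and the labels give no treatment. The labels give the tissue and, for every library alike, epithelial, mesenchymal and immune cells as its content. They name no strain, genotype, sex or age, and whether animals were pooled is not given in the sources used here. The suspensions were stained with propidium iodide, which marks cells with broken membranes, and unstained cells were collected by flow sorting. Since each segment is 1 library, a difference between segments cannot be told apart from a difference between libraries. Total UMIs per library ran from 41953568 to 65546664, and the median UMIs per member were 3106, 3515.5, 3421, 2740 and 3381. Any pair of libraries shared 5 barcodes at most, 30 over all pairs, and no member barcode was shared.

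A B cell that has not met antigen carries IgM and IgD on its surface, both spliced from the same long heavy chain transcript. After activation, B cells may enter germinal centres, where they divide, mutate their antibody genes and switch the constant region of the heavy chain to IgG, IgA or IgE. A switched cell has lost the genomic stretch that holds Ighm and Ighd. In the gut such reactions occur in Peyer's patches and isolated lymphoid follicles, and many of the cells that leave them become plasma cells that secrete IgA. Ighm and Ighd lie next to each other on chromosome 12 (GRCm38.p6, RefSeq: Ighm at 113418826 to 113422730, Ighd at 113407535 to 113416324), and Igha is the last constant region in the row (113256204 to 113260236).

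The members carried the transcripts of mature B cells in all 5 libraries. Of the markers that the choice of cells did not use, Fcer2a, the low-affinity IgE receptor of follicular B cells, had a UMI in 52.6%, 57.3%, 49.6%, 48.7% and 54.1% of members. Bank1, an adaptor of B cell receptor signalling, had one in 83.6%, 82.1%, 81.8%, 80.3% and 84.4%. Cr2, the complement receptor CD21, had one in 46.1%, 64.9%, 47.0%, 39.8% and 41.4%. T cells from the same libraries (Cd3e, no B cell gate UMI, median 3338 to 4657 UMIs) had Fcer2a in 0%, Bank1 in at most 3.2% and Cr2 in at most 1.8%. Levels are CPM, the UMIs of a gene scaled to the summed UMIs of a group of cells. Fcer2a stood at 280, 314, 221, 257 and 278 CPM, Bank1 at 653, 650, 553, 565 and 593 CPM, and Cr2 at 211, 359, 205, 189 and 184 CPM, so the jejunum was the highest for Cr2. Cd74, the invariant chain of MHC class II, ran from 13750 CPM in the colon to 17754 CPM in the rectum.

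T cell and epithelial markers were low beside the cells that they mark. The 8 T cell markers summed to 41 to 48 CPM in members against 5211 to 6434 CPM in T cells, and the 9 epithelial markers to 145 to 422 CPM against 12846 to 24566 CPM in epithelial cells. The 8 myeloid markers summed to 239 to 335 CPM, with no myeloid cells set beside them. The 12 genes of the plasma cell programme were not low. They summed to 1178 to 1371 CPM in members, 544 to 971 CPM in T cells and 1171 to 1889 CPM in epithelial cells. The 6 plasmacytoid dendritic markers summed to 220 to 329 CPM in members, 111 to 610 CPM in T cells and 70 to 164 CPM in epithelial cells; Siglech and Cox6a2 had no UMI in any member, and the other 4 did. The 8 stromal markers stood higher in the large intestine, at 434 CPM in colon and 389 CPM in rectum, than in the small intestine, at 169, 114 and 80 CPM. The 4 haemoglobin genes of the red cell list summed to 1 to 37 CPM.

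The share of B cells that met the interferon limit is set by the rule and is given as a description. Members made up 41.2%, 54.4%, 41.5%, 81.3% and 85.7% of the B cells of the gate, 53.9% of 3248 cells over the 5 libraries. Of the members, 1049 had no UMI of the 10 interferon genes and 702 had 1, while 378 B cells just outside the limit had 2. At the edge of the B cell gate, 32 members had exactly 3 UMIs, and 33 barcodes that met all other limits had 2. The plot of B cells by segment shows both groups.

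**Figure D1:**
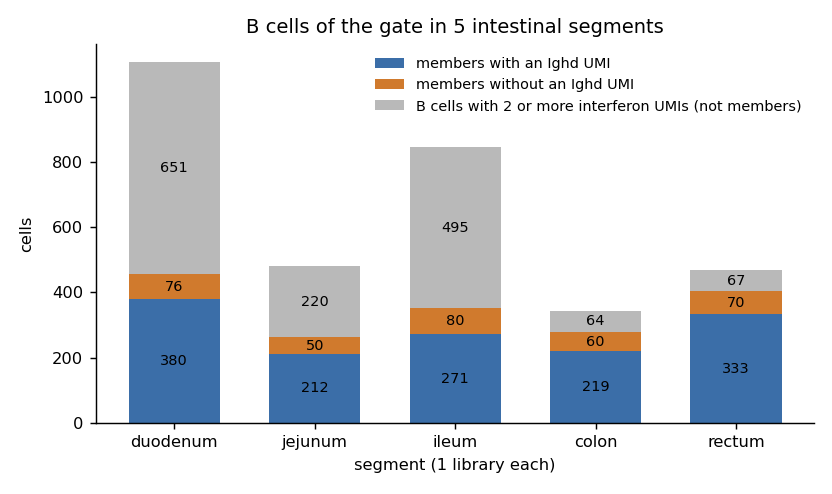
B cells of the gate in each segment (vertical axis, number of cells), split into members with an Ighd UMI (blue), members without one (orange) and B cells with 2 or more interferon UMIs, which are no members (grey). In colon and rectum the members are most of the bar, at 81.3% and 85.7%, and in duodenum and ileum they are 41.2% and 41.5%.

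Ighd, the constant region of IgD, divided the members into 1415 cells with at least 1 UMI, called naive in the rule that defines them, and 336 cells without any. The share with an Ighd UMI was 83.3%, 80.9%, 77.2%, 78.5% and 82.6%. The 95% exact (Clopper-Pearson) intervals began at 79.6%, 75.6%, 72.5%, 73.2% and 78.6% and ended at 86.6%, 85.5%, 81.5%, 83.2% and 86.2%. They overlap one another, so no order of segments can be read from these unthinned shares. Such intervals cover counting error only. In T cells the share was at most 1.8%, and in epithelial cells, with median depths of 21443 to 35692 UMIs, at most 2.5%. Among the cells with Ighd, 314 had a single UMI, and the median over members was 2 or 3. After each cell was thinned to 1000 UMIs the shares were 57.7%, 62.7%, 49.6%, 46.7% and 47.4%, with 9, 10, 6, 9 and 0 shallower members left out. A cell without an Ighd UMI is therefore not shown to lack IgD. The thinned shares spread more widely between segments, from 46.7% in colon to 62.7% in jejunum, than the unthinned ones, from 77.2% to 83.3%. The overlap of intervals given above does not cover the thinned shares. With 1 library per segment, no order of segments is read from them.

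Heavy chain transcripts differed between the cells with and without an Ighd UMI. Ighm, the constant region of IgM, had a UMI in 99.7%, 99.5%, 98.9%, 98.2% and 97.9% of cells with Ighd and in 76.3%, 58.0%, 66.2%, 80% and 71.4% of cells without it, against 37.6% to 47.5% of T cells. A profile of at least 5 UMIs of Igha, Ighg1, Ighg2b, Ighg2c, Ighg3 and Ighe together with no UMI of Ighm or Ighd was found in 14, 19, 25, 9 and 18 cells, 85 of the 336 cells without Ighd (25.3%). The threshold of 5 UMIs was set after values had been seen. At least 5 Igha UMIs were found in 5 of 76, 19 of 50, 23 of 80, 0 of 60 and 12 of 70 cells without Ighd. A single Igha UMI says little here, since it was found in 47.6%, 50%, 13.7%, 40.7% and 87.3% of T cells. In the rectum 21 of 333 cells with Ighd also held at least 5 Igha UMIs, against 1, 0, 0 and 1 in the other segments. No count at this threshold was made in T cells, so the part of free RNA in these Igha counts was not tested.

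Transcripts of the germinal centre reaction were found more often in cells without an Ighd UMI. Rgs13, a regulator of G-protein signalling, had a UMI in 14.5%, 28.0%, 40%, 30% and 15.7% of them and in 1.1%, 0.9%, 0%, 1.4% and 0.3% of cells with Ighd, in none of the T cells and in at most 1.1% of epithelial cells. In cells thinned to 1000 UMIs the shares without Ighd were 9.72%, 10.9%, 15.8%, 10.7% and 7.14%, and with Ighd at most 0.935%. S1pr2, a sphingosine-1-phosphate receptor that holds cells in the germinal centre, had a UMI in 9.2%, 26.0%, 26.2%, 26.7% and 5.7% of cells without Ighd and in at most 0.7% of cells with it, but also in 14.3% of jejunal T cells and at most 1.7% of T cells elsewhere. Mki67, a gene of dividing cells, had one in 10.5%, 26.0%, 30%, 20% and 7.1% against at most 1.9% of cells with Ighd and 3.2% to 5.5% of T cells. The plot of these shares shows the ileum highest for Bcl6, Gcsam, Mef2b, Rgs13 and Mki67, with intervals that overlap those of jejunum and colon.

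At least 2 of 6 germinal centre genes (Bcl6, Mef2b, S1pr2, Gcsam, Rgs13 and Nuggc, counted after values had been seen) were found in 12 of 76, 13 of 50, 33 of 80, 19 of 60 and 8 of 70 cells without Ighd. That was 15.8%, 26.0%, 41.2%, 31.7% and 11.4%, and 25.3% over the 5 libraries. Of the cells with Ighd it was 9 of 1415 (0.636%). Each segment is 1 library, and the cells without Ighd had median depths of 3118.5, 4140, 4287.5, 3027.5 and 3772 UMIs, so no order of segments is read from these shares. Of these 94 cells, 67 also had a UMI of a cycle gene (Mki67, Top2a, Cdk1, Birc5 or Ube2c). Bcl6, the transcription factor of the germinal centre programme, separated the groups less: it had a UMI in 18.4%, 20%, 36.2%, 20% and 14.3% of cells without Ighd, in 6.6%, 16.5%, 8.9%, 2.3% and 8.4% of cells with it, and in 4.8% to 8.2% of T cells.

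**Figure D2:**
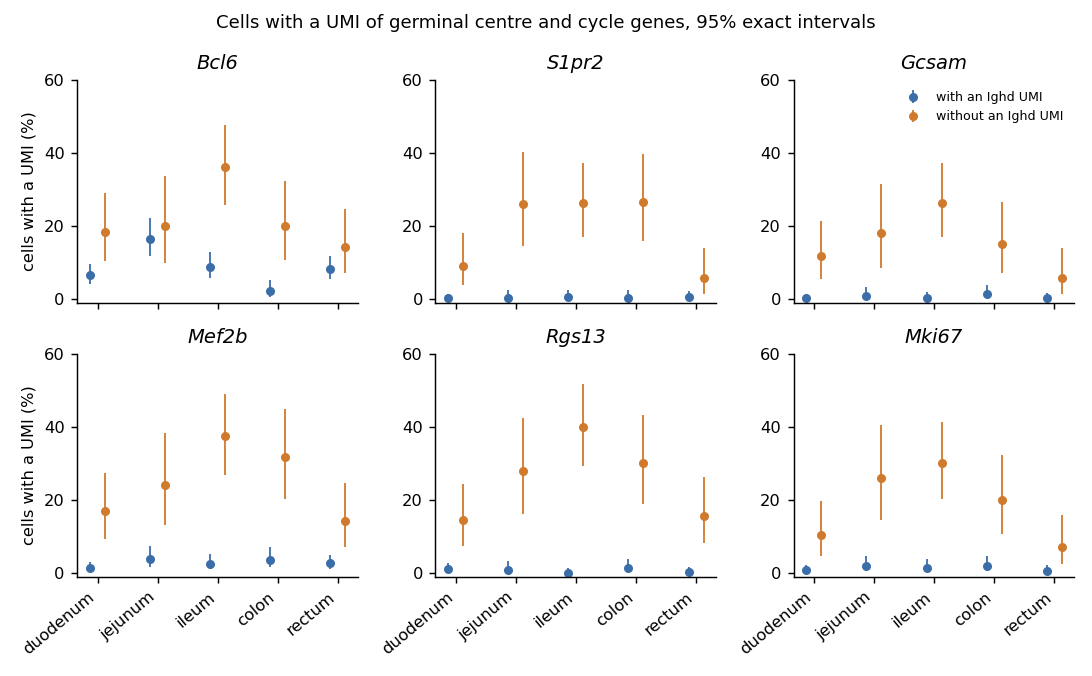
Share of members with at least 1 UMI of each gene (vertical axis, percent of cells) in each segment, for cells with (blue) and without (orange) an Ighd UMI; bars are 95% exact binomial intervals, which cover counting error only. For Rgs13 the cells without Ighd lie between 14.5% and 40%, and the cells with Ighd at 1.4% or less; for Bcl6 the intervals of the sides overlap in jejunum and rectum.

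For a given level, a UMI of Ighd is likelier to be caught in a deeper cell. Yet the cells without Ighd were the deeper side in every library before pairing. Their median depths were 3118.5, 4140, 4287.5, 3027.5 and 3772 UMIs, against 3102, 3460.5, 3305, 2672 and 3330 with Ighd. Cells with and without an Ighd UMI were therefore paired on total UMIs within each library before levels were compared. This gave 60, 39, 58, 46 and 63 pairs, 266 in all, with median depths that differed by at most 8 UMIs between the sides. Some 70 cells without Ighd had no partner within 10%, by library 16, 11, 22, 14 and 7. With cells holding a UMI of a cycle gene left out, 9, 3, 5, 4 and 3 had none. UMIs were summed per library and side and tested by edgeR's quasi-likelihood method, with a term for the library and Benjamini-Hochberg adjustment at 0.05. Ighd and the genes of the gate were left out of the test. Of 2873 genes, 72 were higher in cells with Ighd (2.51% of genes tested) and 81 lower (2.82%), 153 in all (5.33%). Of these, 66 and 65 had the same direction in 5 of 5 libraries. The median log2 fold over all genes tested was 0.01. The p-values measure the spread of the difference between 5 libraries that come from different segments.

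Of 16 listed germinal centre genes, 6 had enough counts to be tested and 4 of them were lower in cells with Ighd: Rgs13, Basp1, Eaf2 and Neil1. Rgs13 stood at 27.5, 0, 0, 0 and 0 CPM in cells with Ighd and at 251, 187, 245, 261 and 70.8 CPM in cells without. The groups did not overlap, and its log2 fold was -4.93 ± 0.41 (SE, adjusted p = 1.87e-09). Basp1, a membrane-associated signalling protein, stood at 59.7, 0, 3.93, 0 and 0 CPM with Ighd and at 237, 268, 634, 461 and 260 CPM without, a log2 fold of -4.68 ± 0.40 (adjusted p = 3.27e-09). Eaf2, a factor of transcription elongation, had a log2 fold of -2.93 ± 0.48 (adjusted p = 3.52e-04). Neil1, a DNA repair glycosylase, had a log2 fold of -1.40 ± 0.42 (adjusted p = 0.0465) and was lower in 4 of 5 libraries. The 2 others tested, Gna13 and Lmo2, had log2 folds of -0.19 and 0.18 (adjusted p = 0.710 and 0.673). The median over the 6 was -2.16, against 0.01 over all genes, and the other 10, among them Bcl6 and S1pr2, had too few counts in the pairs or, for P2ry8, no match.

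Of 18 cell cycle genes only 3 had enough counts to be tested, and 2 of these, Hmgb2 and Pcna, were lower with Ighd. Hmgb2, a chromatin protein abundant in cycling cells, stood at 399, 360, 397, 348 and 503 CPM with Ighd and at 812, 823, 1444, 1384 and 507 CPM without, a log2 fold of -1.17 ± 0.18 (adjusted p = 1.38e-04). The gap was wide in 4 libraries and nearly absent in the rectum. Pcna, the sliding clamp of DNA replication, had a log2 fold of -1.07 ± 0.23 (adjusted p = 0.00563) and was lower in 5 of 5 libraries. Tubb5 had a log2 fold of -0.40 (adjusted p = 0.184).

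Of 7 heavy chain constant region genes 4 were tested: Ighg2b, Ighg1 and Igha were lower in cells with Ighd, and Ighm was higher. Ighg2b stood at 4.59, 0, 7.87, 37.3 and 3.99 CPM with Ighd and at 178, 318, 164, 322 and 142 CPM without, a log2 fold of -4.32 ± 0.33 (adjusted p = 5.63e-10). Ighg1 had a log2 fold of -2.23 ± 0.38 (adjusted p = 6.09e-04) and was lower in 5 of 5 libraries. The IgG constant regions resemble each other closely, so reads may be split between Ighg1 and Ighg2b. Igha stood at 82.6, 164, 23.6, 118 and 495 CPM with Ighd and at 297, 1259, 711, 109 and 625 CPM without. Its groups overlapped, it was lower in 4 of 5 libraries, and its log2 fold was -1.75 ± 0.33 (adjusted p = 0.00129). Igha fell below the limit set on free RNA, which compares the mean level over the libraries with that in all other kept barcodes. In the library where this ratio was lowest, the level in cells without Ighd was 0.0157 of that in the other barcodes. Those barcodes include plasma cells, so the ratio does not measure free RNA alone. Ighm was higher in 5 of 5 libraries, at 2452, 2497, 1940, 1821 and 2165 CPM against 2089, 1801, 906, 1651 and 1609 CPM, a log2 fold of 0.52 ± 0.11 (adjusted p = 0.00335). Of 4 light chain constant regions Iglc2 was higher, with a log2 fold of 0.40 ± 0.12 (adjusted p = 0.0476), and Igkc had a log2 fold near 0 (adjusted p = 1).

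Other genes lower in cells with Ighd, by a rule on size and direction, were Zbtb20, Dck, Fbxw7, Mtf2, Zbtb38, Tmem131 and Smco4. Zbtb20, a zinc finger transcription factor, stood at 142, 126, 66.9, 24.9 and 112 CPM with Ighd and at 347, 866, 504, 279 and 248 CPM without, a log2 fold of -2.09 ± 0.22 (adjusted p = 2.42e-07). Every library without Ighd was above every library with it. Dck, deoxycytidine kinase of nucleotide salvage, Fbxw7, a substrate receptor of a ubiquitin ligase, and Mtf2, a subunit of Polycomb repressive complex 2, had log2 folds of -2.23, -1.90 and -1.64. Zbtb38 and Tmem131 had -1.46 and -1.45, and Smco4 had -4.76. Mzb1, a chaperone of the antibody secretion pathway, was the only one of 6 plasma cell genes tested to be lower (log2 fold -0.74 ± 0.14, adjusted p = 0.00115). Pou2af1, the B cell coactivator OBF-1, was lower with a log2 fold of -0.73 ± 0.19 (adjusted p = 0.0202), the only one of 13 B cell transcription factors tested. Cd44, an adhesion receptor of activated lymphocytes, was lower (-1.27 ± 0.33, adjusted p = 0.0215).

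**Figure D3:**
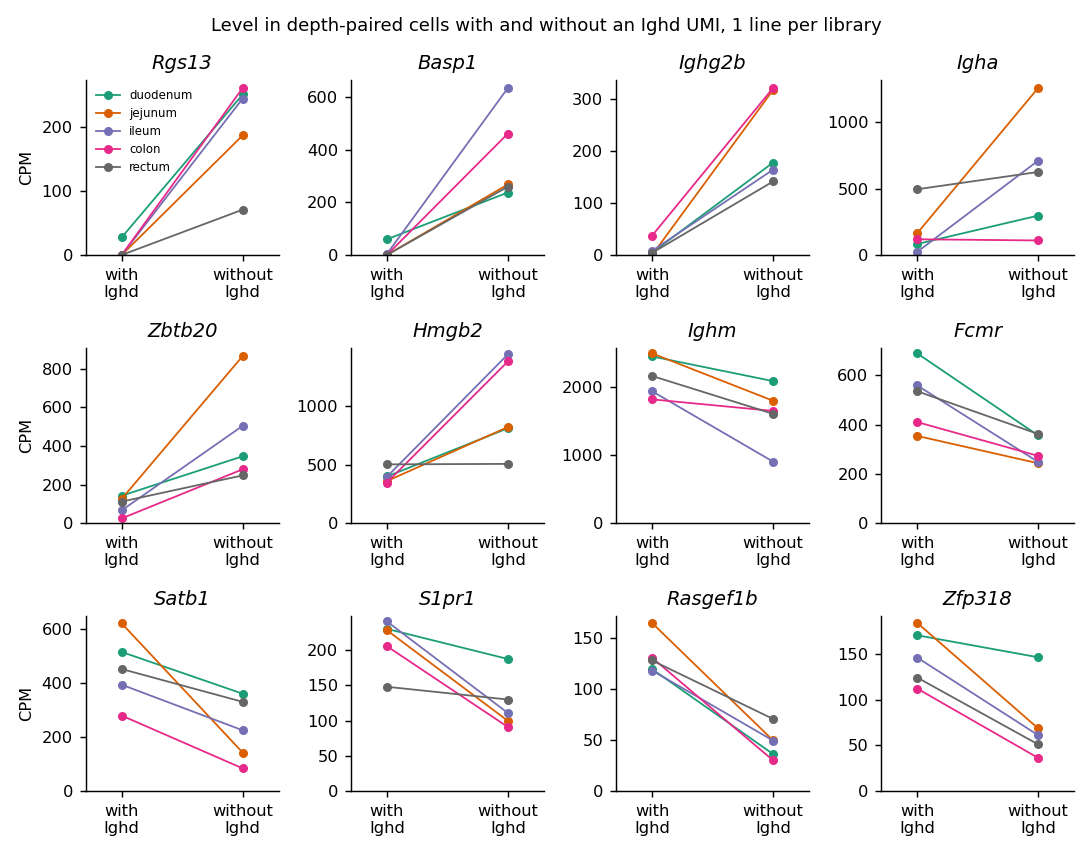
Level in CPM (vertical axis, linear from 0) of 12 genes in depth-paired cells with and without an Ighd UMI, 1 line per library. Rgs13 rises from at most 27.5 CPM to between 70.8 and 261 CPM, Igha is flat in the colon line (118 and 109 CPM), and Fcmr, Satb1 and Ighm fall in every line.

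Of 14 listed genes of resting follicular B cells, 3 were higher in cells with Ighd: Satb1, S1pr1 and Cd55. All 14 were tested, and 13 had a positive log2 fold, with a median of 0.51. Without the cells holding a germinal centre or cycle UMI, Satb1 still passed, and S1pr1 and Cd55 did not, at 0.29 and -0.013. Satb1, a chromatin organiser, stood at 514, 620, 393, 280 and 451 CPM with Ighd and at 360, 143, 225, 85.0 and 330 CPM without, a log2 fold of 1.01 ± 0.18 (adjusted p = 9.21e-04). S1pr1, the receptor by which lymphocytes leave tissues towards blood and lymph, stood at 230, 228, 240, 205 and 148 CPM against 187, 99.7, 111, 91.0 and 130 CPM, a log2 fold of 0.78 ± 0.19 (adjusted p = 0.0119). Cd55, a complement regulator, had a log2 fold of 0.60 ± 0.18 (adjusted p = 0.0439). Bank1, Fcer2a, Klf2 and Cr2 had log2 folds of 0.39, 0.53, 0.45 and 0.49 (adjusted p = 0.0589, 0.0684, 0.0787 and 0.0902). Cxcr5, the receptor for entry into follicles, was the 1 listed gene with a negative log2 fold, -0.59 (adjusted p = 0.168).

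The genes higher with Ighd by the rule on size and direction were Srm, Rasgef1b, Rdx, Zfp318, Satb1, Gpr171, Fcmr, Ahr, S1pr1, Sdhaf1, Cd38 and Serpinb1a. Fcmr, the Fc receptor for IgM, stood at 689, 354, 559, 410 and 535 CPM with Ighd and at 356, 243, 248, 273 and 362 CPM without, a log2 fold of 0.83 ± 0.14 (adjusted p = 5.21e-04). It was higher in 5 of 5 libraries, but the ranges of the sides overlapped because libraries differed in level. Zfp318, a nuclear protein needed for IgD expression in mature B cells, stood at 170, 183, 146, 112 and 124 CPM against 146, 68.5, 61.1, 36.4 and 51.1 CPM, a log2 fold of 1.06 ± 0.22 (adjusted p = 0.00433). Rasgef1b, an exchange factor for Ras-type GTPases, stood at 119, 164, 118, 130 and 128 CPM against 36.5, 49.9, 49.7, 30.3 and 70.8 CPM, with no overlap and a log2 fold of 1.46 ± 0.23 (adjusted p = 2.99e-04). Srm, spermidine synthase, and Rdx, the membrane linker radixin, had log2 folds of 1.52 ± 0.30 and 1.45 ± 0.31 (adjusted p = 0.0021 and 0.00465). The other named genes had log2 folds between 0.71 and 0.94.

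Rgs13 and Basp1 are germinal centre genes that were lower with Ighd in every library, and Fcmr and Rasgef1b were higher with it in every library. The 250 bases before the start of each, from RefSeq on GRCm38.p6, are shown so that the regions can be compared; capitals mark matches to any of 6 motifs described after them. Rgs13 is at chr1:144177373-144177622 on the minus strand, Basp1 at chr15:25413765-25414014 on the minus strand, Fcmr at chr1:130865527-130865776 on the plus strand, and Rasgef1b at chr5:99252928-99253177 on the minus strand.
Rgs13: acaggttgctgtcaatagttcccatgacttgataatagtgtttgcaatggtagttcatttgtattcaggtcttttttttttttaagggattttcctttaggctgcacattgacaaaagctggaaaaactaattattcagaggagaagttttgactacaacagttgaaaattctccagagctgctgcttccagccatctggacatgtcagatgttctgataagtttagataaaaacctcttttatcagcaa
Basp1: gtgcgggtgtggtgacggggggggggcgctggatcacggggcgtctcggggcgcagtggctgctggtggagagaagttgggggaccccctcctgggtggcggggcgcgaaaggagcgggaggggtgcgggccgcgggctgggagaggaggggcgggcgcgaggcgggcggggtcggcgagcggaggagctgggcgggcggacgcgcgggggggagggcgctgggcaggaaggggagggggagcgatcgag
Fcmr: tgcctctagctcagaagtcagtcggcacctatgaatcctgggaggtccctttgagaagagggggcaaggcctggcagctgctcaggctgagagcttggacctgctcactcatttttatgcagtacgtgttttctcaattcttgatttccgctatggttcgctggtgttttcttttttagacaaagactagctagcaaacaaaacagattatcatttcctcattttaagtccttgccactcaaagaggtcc
Rasgef1b: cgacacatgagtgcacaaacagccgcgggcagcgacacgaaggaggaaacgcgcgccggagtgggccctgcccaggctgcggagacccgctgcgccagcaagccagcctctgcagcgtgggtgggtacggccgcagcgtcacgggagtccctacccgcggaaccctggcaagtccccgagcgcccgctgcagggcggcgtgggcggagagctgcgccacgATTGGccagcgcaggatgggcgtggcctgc
The motifs, searched on both strands and chosen with the calls known, were the octamer ATGCAAAT, the E-box CACGTG, the CCAAT box CCAAT, the E2F sites TTTCCCGC and TTTGGCGC, and the cell cycle element TTTGAA. Overlapping matches were allowed. The Rasgef1b region held 1 CCAAT box on the minus strand of the printed sequence, beginning 30 bases before the start, and the other 3 regions held none of the 6. Promoters were found for 2298 of the 2873 genes tested, 52 of the 72 higher and 59 of the 81 lower. CACGTG was in 21.2% of promoters of genes higher with Ighd (11 of 52), 13.6% of those lower (8 of 59), 11.4% of all genes tested and 6.86% of all 27025 genes in the promoter table. The CCAAT box was in 42.3%, 49.2%, 40.6% and 37.5%, TTTGAA in 9.62%, 18.6%, 12.1% and 18.3%, and the octamer in 1.92%, 1.69%, 1.39% and 1.81%. TTTCCCGC was in 0%, 1.69%, 2.65% and 1.03%, and TTTGGCGC in 0%, 0%, 1.26% and 0.485%. These shares describe letters in a window and were not tested.

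Several groups of B cell genes gave few or no calls. None of 9 MHC class II genes, 8 receptors and mediators of BAFF, APRIL and CD40 signalling, 5 homing receptors, 14 immediate early genes, 3 marginal zone and B1 genes or 5 other interferon-stimulated genes tested passed, with medians of 0.11, -0.06, 0.11, 0.19, 0.34 and 0.14 on the log2 scale. Of 14 B cell receptor signalling genes Cd72, an inhibitory receptor, was higher (log2 fold 0.69 ± 0.16, adjusted p = 0.011). Of 4 memory and activation genes tested, Cd38 was higher (0.73 ± 0.18, adjusted p = 0.0144) beside the lower Cd44. Genes of ribosomal proteins were looked at after their values had been seen: 30 of 83 were higher with Ighd (36.1%) and 0 lower, with a median log2 fold of 0.22, against the 2.51% of all genes tested.

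**Figure D4:**
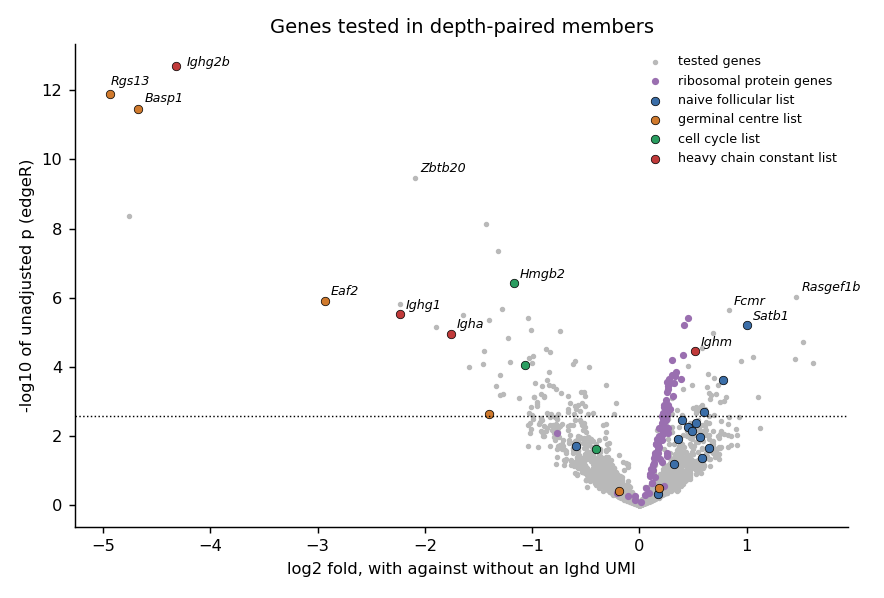
All 2873 genes tested, with the log2 fold of cells with against without an Ighd UMI (horizontal axis) and -log10 of the unadjusted edgeR p (vertical axis); the dotted line is the largest p that passes at an adjusted 0.05. Rgs13, Basp1 and Ighg2b lie far to the left, at -4.93, -4.68 and -4.32, and ribosomal protein genes form a narrow band right of 0.

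Signs of quality and of other cell types moved with this split. The median mitochondrial share was higher without Ighd in 5 of 5 libraries among the pairs (5.13%, 5.92%, 4.51%, 4.87% and 5.90% against 4.82%, 4.85%, 3.98%, 4.71% and 5.49%). Over all members the T cell markers summed to 97, 69, 53, 54 and 71 CPM without Ighd and 32, 31, 41, 43 and 39 CPM with it. Epithelial and myeloid markers moved the other way in 5 of 5 libraries. The epithelial sum was 325, 322, 386, 477 and 153 CPM with Ighd and 273, 183, 194, 304 and 113 CPM without, and the myeloid sum was 288, 279, 266, 292 and 373 CPM with it and 271, 183, 192, 283 and 191 CPM without. The stromal markers summed to 87, 48, 34, 1152 and 86 CPM without Ighd and to 196, 138, 108, 94 and 467 CPM with it. The highest sum of each side rests on few cells. In colon, 2 cells without Ighd held 367 of the 449 stromal marker UMIs, and in rectum 3 cells with Ighd held 468 of 632. Of the plasmacytoid dendritic list, Tcf4, a transcription factor that B cells share, was lower with Ighd (log2 fold -0.60 ± 0.17, adjusted p = 0.0356), while Siglech was at 0; no gene of the T cell, myeloid, epithelial, stromal or red cell lists passed, though only 1, 2, 2, 1 and 0 of them were tested. At a limit of 10% mitochondrial UMIs, 73 genes were higher and 64 lower, and the median mitochondrial share stayed higher without Ighd in 5 of 5 libraries. Without the cells holding at least 10 stromal marker UMIs, 72 were higher and 81 lower, with as many pairs in each library. The part of the T cell, epithelial and myeloid markers in the result was not tested.

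Fewer genes passed in several settings. Some of these also had fewer pairs or libraries, while DESeq2 and the fit without the library term used the same 266 pairs and all libraries. With cells holding a UMI of a cycle gene left out, 227 of 266 pairs remained, and 7 genes were higher and 9 lower (0.688% of 2327 tested). With those holding a UMI of a germinal centre or cycle gene left out, an alternative chosen after seeing the data, 181 pairs remained, and 6 were higher and 12 lower (1.06% of 1696), among them still Fcmr, Zbtb20, Igha and Mzb1, while Rgs13, Basp1 and Ighg2b had too few counts. With 0 interferon UMIs, 160 pairs gave 9 higher and 13 lower, and without the library term 6 were higher and 26 lower. Without the ileum 10 were higher and 13 lower, without the jejunum 26 and 40, and without the colon 16 and 44. DESeq2 gave an adjusted p for 645 genes and called 63 (9.77%). Of the genes named by the rule on size and direction, only 4 had an adjusted p there, and they kept their calls. Its 18 lower genes included Basp1 and Zbtb20 but not Rgs13, Eaf2, Ighg1, Ighg2b or Igha. Whether the difference itself differed between small and large intestine was tested with an interaction term, added after values had been seen, which called Igha and Ccl4 (0.0696% of 2873). Of the named genes still tested without the germinal centre and cycle cells, Fcmr, Satb1 and Zbtb20 kept their calls, at 0.71, 0.71 and -1.75. Ahr reversed in sign, at -0.28. Rasgef1b, Zfp318, Gpr171, Cd38, S1pr1, Serpinb1a and Sdhaf1 no longer passed, at 0.93, 0.81, 0.52, 0.46, 0.29, 0.15 and 0.07. Of the list members, Ighm, Cd72, Iglc2, Pou2af1, Tcf4 and Hmgb2 no longer passed, at 0.35, 0.19, 0.14, -0.54, -0.63 and -0.22.

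Small and large intestine were compared by a rule of size, with no test: the 3 small intestinal libraries and the 2 of the large intestine each come from a different segment, and no segment has a second library. A gene counted if its lowest library on one side was at least 2-fold above the highest on the other, with at least 50 UMIs over the libraries and a level on the higher side of at least 0.25 of that in all other kept barcodes. Of 8150 genes, 5 were higher in duodenum, jejunum and ileum (0.0613%) and 27 in colon and rectum (0.331%). The 5 were Nlrc5, Zfp217, Irf9, Scrib and Trim30d. Irf9, the DNA-binding subunit of the interferon-activated complex ISGF3, stood at 59.4, 45.7, 65.8, 21.3 and 17.2 CPM, 2.15-fold apart at the closest. Nlrc5, a transactivator of MHC class I genes, stood at 12.9, 21.5, 11.8, 3.87 and 3.08 CPM, and its 3.06-fold gap rests on 4 and 5 UMIs in colon and rectum. Scrib, a polarity scaffold, stood at 19.6, 29.9, 21.7, 8.71 and 9.23 CPM. Irf9, Nlrc5 and Trim30d respond to interferon, and the choice of members limits such cells in each segment without making them equal.

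Of the 27 genes higher in the large intestine, 2 were on the list of 8 stromal markers, Col1a1 and Col1a2, and none of the 27 was called without 6 barcodes. Adamdec1, a metalloprotease-like gene of gut stroma and macrophages, stood at 0.613, 0.933, 0.658, 257 and 156 CPM. Igfbp7 stood at 3.68, 0, 0.658, 88.1 and 75.1 CPM, and Igfbp4, Col1a2, Serpinh1, Rarres2, Cxcl12 and Gpx3 completed the 8 widest gaps. Only 6 members, 1 in duodenum, 2 in colon and 3 in rectum, held at least 10 stromal marker UMIs, a threshold set after seeing the data. They held 904 of the 1601 stromal marker UMIs of all members and 506 of the 523 Adamdec1 UMIs, and 2 of them were among the highest Scrublet doublet scores. Without these 6 cells Adamdec1 stood at 0, 0.933, 0.658, 5.97 and 5.69 CPM, the stromal markers at 127, 114, 80.3, 81.6 and 104 CPM, and 1 gene was higher in the large intestine (Hspa1a, 0.0124% of 8044) beside 5 higher in the small intestine (0.0622%). Among cells with an Ighd UMI alone, 11 genes were higher in the small intestine and 0 in the large. This choice leaves out the 2 colonic cells rich in stromal transcripts, which had no Ighd UMI, but keeps the 3 rectal ones. Adamdec1 stood at 5.70 CPM in colonic and 195 CPM in rectal cells with Ighd.

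**Figure D5:**
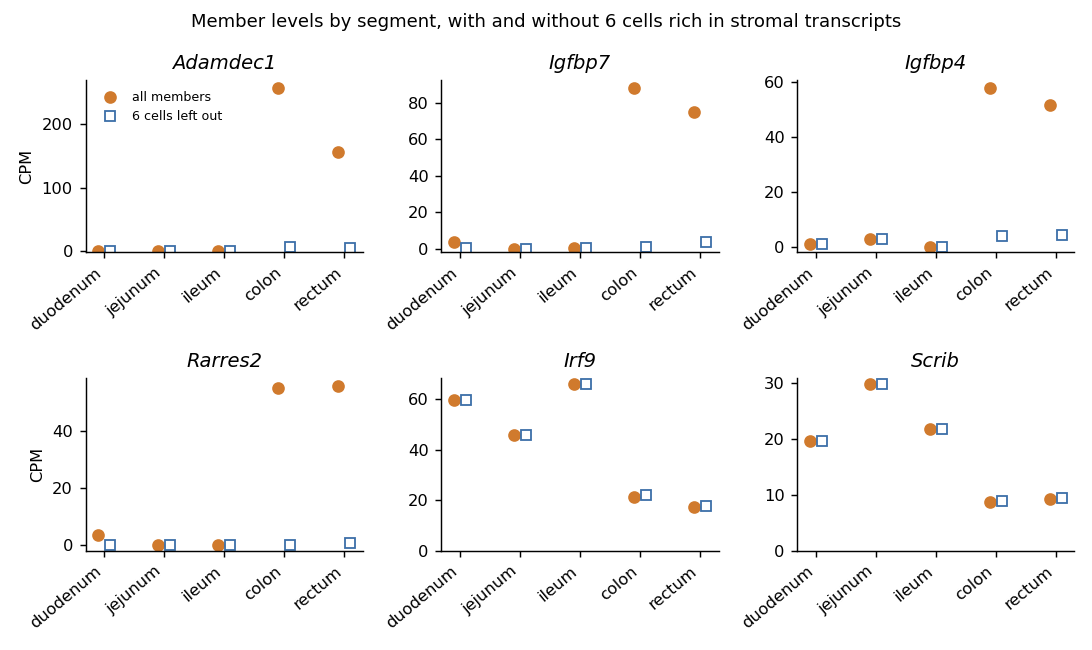
Level in CPM (vertical axis, linear) of 6 genes in the members of each segment, with all members (filled) and with the 6 cells rich in stromal transcripts left out (open squares). Adamdec1, Igfbp7, Igfbp4 and Rarres2 drop to 5.97 CPM or less in colon and rectum, while Irf9 and Scrib stay above 2-fold higher in the 3 small intestinal libraries.

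Levels without overlap were more frequent in the small than in the large intestinal direction: 17.6% of the 8150 genes had all 3 small intestinal libraries above both others, and 7.56% the reverse. By the same rule of size, single segments differed from all 4 others in few genes. Duodenum had 5 (0.0613%), among them Oasl1, an interferon-stimulated gene, at 28.8 CPM against 2.46 to 13.1 CPM, and Nab2 at 22.1 CPM against 7.24 to 10.5 CPM. Jejunum had 27 (0.331%), and its leaders Cog7, Mmd and Zbtb17 rested on 20 to 23 UMIs each there. Ileum had 6 (0.0736%): Fgd6 at 36.2 CPM against at most 11.2 CPM, Zfp367 and Esco2, the cohesin acetyltransferase of S phase, at 54.0 CPM against at most 26.1 CPM. Among ileal cells with Ighd, Esco2 stood at 0 CPM, so its UMIs came from cells without Ighd. Fgd6 stood at 14.6 CPM in ileal cells with Ighd, against at most 9.31 CPM in such cells elsewhere. Zfp367 stood at 4.18 CPM against at most 5.70 CPM. In cells with Ighd alone, 0 of 7197 genes met the rule for the ileum. Colon had 14 (0.172%), led by Ifitm1, Igfbp3 and Hbb-bt, of which the first pair stood at 0 CPM there without the cells rich in stromal transcripts. Hbb-bt, a haemoglobin gene, stood at 32.9 CPM in colonic members but at 1.43 CPM in those with Ighd. Rectum had 12 (0.147%), led by Ccn2, Timp3 and Nr4a3. Without the cells rich in stromal transcripts, Ccn2 stood at 0 CPM and Timp3 at 2.53 CPM there. Nr4a3, a nuclear receptor induced by antigen receptor signalling, then stood at 32.3 CPM against at most 9.87 CPM. With those cells left out, colon had 7 genes and rectum 6, of 8044.

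Set beside the 1497 B cells of the gate with 2 or more interferon UMIs, the members were described without a test, since the rule chose them on such genes. The 18 other interferon-stimulated genes in the files summed to 1670, 880, 1490, 606 and 489 CPM in members and to 5393, 4161, 5816, 1414 and 682 CPM in the interferon group. Ifi27l2a alone stood at 838, 397, 855, 222 and 167 CPM in members and at 2010, 1413, 2319, 605 and 287 CPM in the others. By gene, 18, 17, 18, 14 and 9 of the 18 were higher in the interferon group. The members thus were not free of these transcripts. Their sum was higher in every small intestinal library, at 880 to 1670 CPM, than in colon and rectum, at 606 and 489 CPM. This was not particular to members. The sum was 2203, 1484, 1511, 973 and 687 CPM in T cells and 866, 771, 1263, 164 and 149 CPM in epithelial cells. Rgs13 had a UMI in 3.3%, 6.1%, 9.1%, 7.5% and 3.0% of members and in 1.1%, 1.8%, 3.8%, 1.6% and 1.5% of the interferon group, at median depths of 2740 to 3515.5 and 3204.5 to 3676 UMIs. This difference between the groups was not tested.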

How the data were processed

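Single-cell RNA was measured with 10x Genomics libraries of 5 mouse intestinal segments, 1 library each. The values are UMI counts per gene and barcode as deposited. Per the submitters' processing notes, Cell Ranger 4.0.0, Seurat and the mm10 build were used, while the file headers of the count matrices name cellranger 7.2.0. What produced the difference is not given in the sources used here, and neither is a step for free RNA or doublets.

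Each library listed 32285 genes, of which 78 share a symbol and were left out. Members were chosen by the rule in the report. The members, gene lists and motifs were chosen with earlier results of these data known. Barcodes with the highest Scrublet scores (scanpy 1.11.5, 0.8% per 1000 kept barcodes) were marked and left out only as an alternative; they included 3 members. Cells with and without an Ighd UMI were paired 1 to 1 on total UMIs, within 10%, summed per library and tested with edgeR 4.0.16 (R 4.3.3; TMM, filterByExpr, glmQLFit, glmQLFTest, a term for the library, Benjamini-Hochberg adjustment at 0.05), with DESeq2 1.42.0 as an alternative. The 2 sums of a library come from 1 suspension, and p-values measure only the spread between these 5 libraries. Segments have 1 library each and were described by a rule of size without a test. On simulated counts of 2873 genes the Ighd comparison recovered 69% of 100 genes changed 2-fold and 86% of 100 changed 4-fold, with 11 false calls. Shares have exact binomial intervals at 95%. Intervals cover counting error only. Thinned shares used 1000 UMIs per cell.

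Genes named in the text were, for the Ighd comparison, the 12 of largest log2 fold in each direction among those passing the test with the same direction in all libraries, at least 20 CPM on the higher side and at least 0.25 of the level in other kept barcodes. For small against large intestine they were up to 8 genes per direction, those furthest apart, and for single segments 3 genes each. Variable-region, T cell receptor, mitochondrial and ribosomal protein genes and unnamed gene models were left out, and members of the 21 lists were named too (226 of 229 listed genes are in the files). Some genes that these rules name are not reported here. Ccl4 and Hspa1a were named after their values were seen. Promoters and positions come from RefSeq, GRCm38.p6; 26335 of 32285 genes matched 1 symbol. Alternatives are given in the closing section. Python 3.11.15, numpy 2.4.6, scipy 1.17.1 and matplotlib 3.10.9 were used.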

Additional observations from a re-analysis of the deposited data

Results flagged for a closer look

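In 2 genes the difference between cells with and without an Ighd UMI was itself different in small and large intestine, by an edgeR interaction term with Benjamini-Hochberg adjustment over 2873 genes that was added after values had been seen. At an unadjusted p under 0.05 there were 108. For Igha, the log2 fold was larger by 2.89 in colon and rectum (adjusted p = 0.0018): per library, in the order duodenum, jejunum, ileum, colon, rectum, the paired levels were 82.6, 164, 23.6, 118 and 495 CPM with Ighd and 297, 1259, 711, 109 and 625 CPM without. Igha was found in 87.3% of rectal T cells, and the part of free RNA in this difference was not tested. For Ccl4, a chemokine, the log2 fold was larger by 3.02 in colon and rectum (adjusted p = 0.018), with 36.7, 19.0, 31.5, 460 and 308 CPM with Ighd and 18.2, 37.4, 65, 54.6 and 66.9 CPM without.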

How the results depend on the processing

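For the Ighd comparison, the 72 higher and 81 lower genes became 705 and 803 in all cells not paired on depth, 9 and 13 in cells with 0 interferon UMIs, 7 and 9 without cells holding a cycle UMI, 6 and 12 without cells holding a germinal centre or cycle UMI, and 37 and 45 without cells above 10000 UMIs. DESeq2 gave 45 and 18, library totals without TMM 43 higher and 115 lower, no filter on low counts 176 lower, and no library term 6 and 26. Leaving out each library gave 10 to 63 higher and 13 to 90 lower. A limit of 10% mitochondrial UMIs gave 73 and 64. Without the highest Scrublet scores, or without cells rich in stromal transcripts, 72 and 81 passed, with as many pairs in each library as before. Without germinal centre and cycle cells the sign reversed for Ahr (log2 fold -0.28) and Cd55 (-0.013); these settings and those for deep cells, stromal transcripts and no interferon limit were chosen after seeing the data. The cause was not tested.

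Thinned to 1000 UMIs, the Ighd share was 57.7%, 62.7%, 49.6%, 46.7% and 47.4%. By the rule of size, the 27 genes higher in the large intestine became 17 at a limit of 10% mitochondrial UMIs, 1 without the highest Scrublet scores, 12 with 0 interferon UMIs, 0 in cells with an Ighd UMI, 2 without cells above 10000 UMIs, 1 without cells rich in stromal transcripts, 4 at 200 UMIs, and 48, 5 and 57 at a free RNA limit of 0.1, 0.5 and none. The 5 higher in the small intestine became 8 at 6 UMIs in the gate, 11 in cells with Ighd, 9 without deep cells, 86 with no interferon limit, 0 at a 4-fold gap, 1 at 200 UMIs and 20 with no free RNA limit. Leaving out each library gave 8 to 101 there and 20 to 29 in the large intestine. The Ighd comparison pairs the 2 sums of each library; the labels give no replicate numbers that would pair segments.

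The main limits are 1 library per segment, 336 cells without Ighd, and 314 cells placed in the Ighd group by a single UMI.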
